A study of Rattus norvegicus with 9 samples.

Results

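The genes described here are 39 interferon-induced and antigen presentation genes, chosen by name. They are the interferon regulatory factors and their partners, antiviral effectors, the inducible parts of the proteasome, the machinery that loads peptides onto major histocompatibility complex (MHC) class I molecules, and class II genes. The arrays used here named 1 gene for a probe set of 38 of the 39, out of 14497 genes measured in all, and Nlrc5 was not analysed here. Each gene was measured in 3 kinds of rat liver cells of strain F344, with 3 biological replicates each and 1 Affymetrix Rat ST 1.0 array per replicate. Adult hepatocytes came from rats of 5 to 6 weeks by collagenase perfusion of the liver. Fetal cells came from livers of embryonic day 19, dissociated with collagenase and sorted on magnetic columns with antibodies to leucine aminopeptidase, which marks hepatic cells, and to OC.2, which marks duct cells. One fetal fraction is labelled positive for both antigens (OC.2+ cells), the other positive for leucine aminopeptidase and without OC.2 (OC.2- cells). The sort program in the labels is the same for both fractions, and a short label of the OC.2+ arrays reads LAP-OC2+, so the 2 fractions are told apart by title and cell type label alone. No group received a treatment, and all cells were freshly isolated.

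Interferons are secreted proteins that warn cells of viruses. Type I interferons act through the kinases Jak1 and Tyk2 and a complex that holds Stat2 and Irf9, which binds a DNA element called ISRE. Interferon gamma acts through Jak1 and Jak2 and an element called GAS, and induces Irf1 and the class II activator Ciita. Their targets block steps of viral growth, cut proteins into peptides with an altered proteasome, and carry these peptides into the endoplasmic reticulum, where they are loaded onto class I molecules with B2m as the light chain. Hepatocytes carry little class I antigen at rest compared with white blood cells and are normally without class II, which belongs to B cells, dendritic cells and macrophages.

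The letters of these elements were searched in the promoters of the genes, because these elements are known from many interferon-induced genes. RefSeq windows of 300 bases on rat assembly GRCr8, from 250 bases before to 50 after the start, were at hand for 31 of the 39 genes. ISRE was searched on both strands as GAAA, then any 2 bases, then GAAA, and GAS as TTCNNNGAA, which reads alike on both strands. ISRE letters were in 17 of the 31 windows (54.8%), against 3.92% of all 33469 windows, and GAS letters in 8 (25.8%), against 8.87%. Both were in 5 windows, and not every member had either. An ISRE and a GAS match can overlap, as in Bst2. The following stretches are given 5′ to 3′ on the strand of the gene, with the matching letters in capitals. The first 6 belong to genes that were lower in at least 1 fetal fraction than in adult hepatocytes.
Oas1a, chr12:41330421-41330450, + strand: tcgggaaatgGAAACTGAAAatcttgttcc
Bst2, chr16:18255073-18255102, - strand: ccaggaaaatGAAACTGAAAggtggcagca
Psmb8, chr20:4657016-4657045, - strand: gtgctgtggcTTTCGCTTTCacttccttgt
Tap1, chr20:4668645-4668674, - strand: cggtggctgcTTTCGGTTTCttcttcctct
B2m, chr3:129549170-129549199, + strand: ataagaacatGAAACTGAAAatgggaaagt
Ifitm3, chr1:205541783-205541812, - strand: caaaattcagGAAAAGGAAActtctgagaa
The next 3 belong to Ifit3 and Psmb10, which were called in no comparison, and to Gbp2, which was higher in both fetal fractions.
Ifit3, chr1:241527272-241527301, + strand: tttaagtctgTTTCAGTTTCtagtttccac
Psmb10, chr19:50743346-50743375, - strand: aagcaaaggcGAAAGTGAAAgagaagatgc
Gbp2, chr2:234005686-234005715, + strand: agttttttagTTTCACTTTCattgtcttaa
The last 3 hold GAS letters and belong to 3 regulatory factors that moved in 3 different ways.
Irf1, chr10:38417783-38417811, + strand: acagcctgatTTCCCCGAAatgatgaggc
Irf8, chr19:65699094-65699122, + strand: cagaagtgatTTCTCGGAAaggcgagcgc
Irf9, chr15:33065727-33065755, + strand: accacgtgatTTCTAGGAActgcacctcc
Of the members with a window that were lower in OC.2- cells than in adult hepatocytes, 10 of 20 held ISRE letters, as did 2 of the 4 that were higher and 5 of the 7 that were not called. Among all genes with a window the shares were 3.86% of the lower, 3.82% of the higher and 3.29% of those not called. The letters were thus common among members of every kind of response. Such a match is a description of the window and not a site of binding.

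The 250 bases before the start of Bst2, a membrane protein that tethers budding viruses to the cell, show how densely such letters can lie. In this stretch (chr16:18254968-18255217, - strand) a GAS match runs into a pair of overlapping ISRE matches, and the capitals mark all of them.
Bst2: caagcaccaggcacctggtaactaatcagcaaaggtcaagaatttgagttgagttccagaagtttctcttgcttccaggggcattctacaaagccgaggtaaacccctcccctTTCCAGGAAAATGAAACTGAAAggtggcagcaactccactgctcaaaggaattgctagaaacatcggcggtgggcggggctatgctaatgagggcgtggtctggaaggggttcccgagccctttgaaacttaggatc

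The cells were checked against their labels with marker lists, read as the mean log2 intensity of a list on each array. Hepatocyte genes stood at 12.72 to 12.83 on adult arrays, 12.43 to 12.58 on OC.2- arrays and 10.35 to 10.56 on OC.2+ arrays. Granulocyte genes stood at 5.68 to 5.85, 5.88 to 6.03 and 9.54 to 9.58, and general genes of white blood cells at 6.09 to 6.15, 6.83 to 7.01 and 8.99 to 9.2 in the same order. Erythroid genes rose from 6.3 to 6.42 on adult arrays to 9.72 to 9.94 and 11.41 to 11.5 in the fetal fractions. Macrophage genes were at 6.77 to 6.87, 7.42 to 7.73 and 7.16 to 7.33, and endothelial genes at 6.63 to 6.94, 8.59 to 9.0 and 6.44 to 6.51. B cell, dendritic cell, T and NK cell, and duct genes stood below 7 on every array, and no marker is listed at 0. The OC.2+ arrays therefore carried strong granulocyte and erythroid signals beside their label as hepatocytes. By these means the OC.2- arrays also carried erythroid, endothelial and macrophage signals above those of the adult arrays. The part of such signals in each result that follows was not tested. In such bulk samples, fewer cells of a type and less RNA per cell cannot be told apart.

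Most of the members were lower in fetal cells than in adult hepatocytes. In OC.2- cells 24 of the 38 measured members were lower and 4 higher than in adult hepatocytes, at an adjusted p under 0.05 from limma over all genes. The median log2 difference of the members was -0.56, against 0.07 for all genes, of which 44.5% were called in this comparison, 20.9% lower and 23.7% higher. At least 2-fold lower were 11 members (6.58% of all genes), among them Usp18, Psmb9, Oas1a, Psmb8 and Mx2, and 1 member, Irf1, was at least 2-fold higher (4.06%). In OC.2+ cells 22 members were lower and 5 higher than in adult hepatocytes, with a median of -0.34 against 0.11 for all genes. Of all genes 55.4% were called in this comparison, 23.4% lower and 32% higher. At least 2-fold lower were 10 members (11.1% of all genes), with Usp18, Ifitm3, B2m, Oas1a and Stat2 in front, and 1 member, Irf8, was at least 2-fold higher (7.82%). The 2 comparisons share the adult arrays. In OC.2- cells all 3 arrays lay below the 3 adult arrays for 26 members (23.2% of all genes) and above them for 4 (28.2%), 30 either way (51.4%). In OC.2+ cells they lay below for 23 (25.0%) and above for 5 (37.2%), 28 either way (62.2%).

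The fetal fractions themselves differed less, and in both directions. In OC.2+ cells 13 members were higher and 8 lower than in OC.2- cells, with a median of 0.11 against 0.04 for all genes. Of all genes 38.5% were called, 20.3% higher and 18.2% lower. No member was higher by 2-fold or more (3.69% of all genes), and 2 were lower by that much, Ifitm3 and Irf1 (6.63%). The arrays of the fractions did not overlap for 24 members, against 46.5% of all genes. The OC.2+ arrays were the higher ones for 15 of them (25.8% of all genes) and the lower ones for 9 (20.7%). Ordered by group mean, 18 members ran from adult hepatocytes through OC.2+ to OC.2- cells, and 10 ran from adult hepatocytes through OC.2- to OC.2+ cells. Neighbours in these orders often did not differ, and the orders were not counted over all genes. Of the members lower in both fetal fractions, 7 were also called higher in OC.2+ cells than in OC.2- cells, a pattern of 1.24% of all genes. Another 5 such members were called lower there, a pattern of 8.54% of all genes.

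The median over all measured genes shifted slightly in the comparisons with adult hepatocytes, and part of this depends on the scaling of the arrays. The median log2 difference of all genes was 0.066 between OC.2- cells and adult hepatocytes and became -0.037 when each array was centred on its median. In OC.2+ cells against adult hepatocytes it was 0.108, and -0.004 after cyclic loess scaling. With centred arrays 4 members were higher and 27 lower in OC.2- cells, where 2324 of all genes were then higher and 3773 lower, against 3431 and 3027 as deposited. In OC.2+ cells 3 members were then higher and 24 lower.

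**Figure D1:**
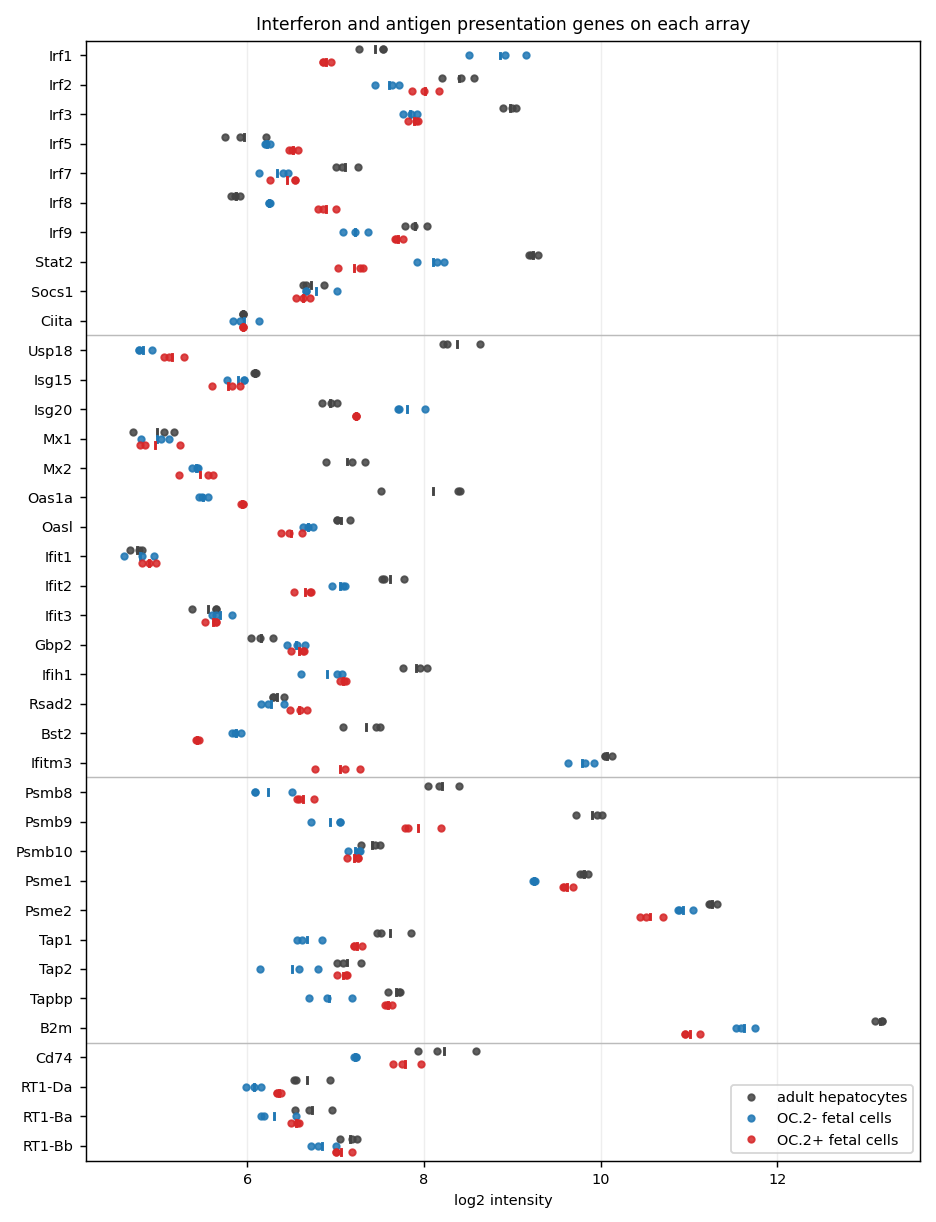
Log2 intensity of the 38 measured genes on each of the 9 arrays, by role from regulatory factors at the top through antiviral effectors and class I loading to class II, with a short bar at each group mean of 3 arrays. Levels can be compared along a line and not between lines, since probe sets differ. Usp18 is at 8.22 to 8.63 on adult arrays and 4.77 to 5.28 on all fetal arrays, and Ifitm3 stands lower on the OC.2+ arrays (6.77 to 7.28) than on the others.

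**Figure D2:**
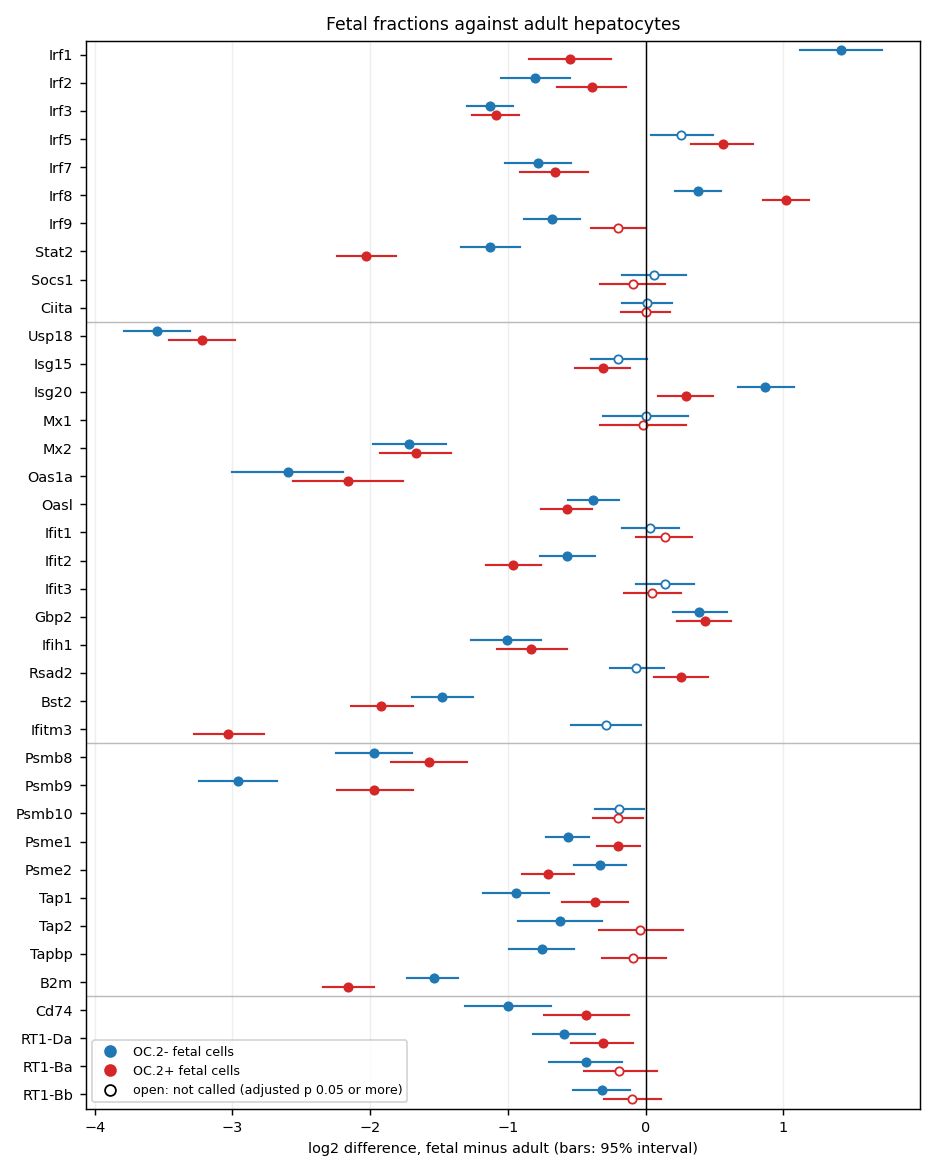
Log2 differences of OC.2- cells and OC.2+ cells from adult hepatocytes, with 95% intervals from limma and open points where the adjusted p was 0.05 or more. Points lie left of 0 for most genes in both fractions, farthest for Usp18 (-3.55 and -3.22), while Irf1 lies on opposite sides (1.42 and -0.55).

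The regulatory factors did not move as 1 group. Of the 10 measured, 5 were lower and 2 higher in OC.2- cells than in adult hepatocytes, 5 lower and 2 higher in OC.2+ cells, and 4 higher and 2 lower in OC.2+ cells than in OC.2- cells. The shares called, 70%, 70% and 60% in that order, stand beside 44.5%, 55.4% and 38.5% of all genes. Irf1, an early target of interferon gamma and an activator of class I genes, had log2 intensities of 7.53, 7.53 and 7.26 on the adult arrays, 8.92, 8.51 and 9.16 on the OC.2- arrays, and 6.86, 6.86 and 6.95 on the OC.2+ arrays. The OC.2- arrays stood highest and the OC.2+ arrays lowest, with no overlap between any pair of groups. It was 2.68-fold (95% interval 2.17 to 3.3) higher in OC.2- cells than in adult hepatocytes and 3.92-fold (3.18 to 4.83) lower in OC.2+ cells than in OC.2- cells, with adjusted p of 2.43e-06 and 1.09e-07 in limma. Against adult hepatocytes the OC.2+ cells were 1.46-fold (1.19 to 1.81) lower. Endothelial markers were also higher in OC.2- cells than in adult hepatocytes and than in OC.2+ cells, in 7 of 7 genes each, and their part in these differences was not tested. Of all genes, 1.17% were, like Irf1, higher in OC.2- cells and lower in OC.2+ cells than in adult hepatocytes, and lower in OC.2+ cells than in OC.2- cells.

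Irf8, a factor of myeloid and B cells, climbed in steps. Its log2 intensities were 5.92, 5.86 and 5.82 in adult hepatocytes, 6.24, 6.25 and 6.26 in OC.2- cells, and 7, 6.8 and 6.86 in OC.2+ cells. All 3 groups were separate, and OC.2+ cells exceeded adult hepatocytes 2.03-fold (95% interval 1.81 to 2.27) and OC.2- cells 1.56-fold (1.39 to 1.75). Irf5, another factor of myeloid cells, was at 5.75 to 6.21, 6.2 to 6.26 and 6.47 to 6.57, and was 1.47-fold (1.26 to 1.72) higher in OC.2+ cells than in adult hepatocytes. Its difference between the fractions was 0.3 on the log2 scale (adjusted p = 0.0394 in limma). Without any 1 of the OC.2+ or OC.2- arrays the adjusted p of that difference was 0.0643 to 0.123. It also missed the threshold after cyclic loess (0.0628). In OC.2- cells against adult hepatocytes Irf5 was not called, with a difference of 0.26, and was called without adult replicate 2, at 0.39. White cell markers rose in the same order over the 3 groups as Irf8 and Irf5, and their part in the result was not tested. Irf5 lay below the median gene on all 9 arrays.

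Stat2 and Irf9, which bind DNA together as parts of 1 complex, fell to different degrees. Log2 intensities of Stat2 were 9.29, 9.19 and 9.21 in adult hepatocytes, 8.15, 8.23 and 7.92 in OC.2- cells, and 7.27, 7.03 and 7.31 in OC.2+ cells. The 3 groups stood apart in that order. Stat2 was 2.18-fold (95% interval 1.88 to 2.54) lower in OC.2- cells and 4.07-fold (3.5 to 4.74) lower in OC.2+ cells than in adult hepatocytes, and 1.86-fold (1.6 to 2.17) lower in OC.2+ cells than in OC.2- cells. Irf9 had log2 intensities of 8.03, 7.89 and 7.79 in adult hepatocytes, 7.22, 7.37 and 7.08 in OC.2- cells, and 7.76, 7.67 and 7.68 in OC.2+ cells. The OC.2- arrays were the low ones here, 1.6-fold (1.39 to 1.84) below adult hepatocytes, and OC.2+ cells were 1.39-fold (1.21 to 1.6) above OC.2- cells. Between OC.2+ cells and adult hepatocytes Irf9 differed by -0.2 on the log2 scale (95% interval -0.4 to 0, adjusted p = 0.0847 in limma), and by -0.28 with centred arrays, where it was called (adjusted p = 0.0297). Thus Stat2 was lower and Irf9 higher in OC.2+ cells than in OC.2- cells.

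Irf3 and Irf7 switch on interferon genes once a virus has been sensed, and both were lower in the fetal cells. Irf3 was at 8.89 to 9.04 in adult hepatocytes, 7.76 to 7.92 in OC.2- cells and 7.82 to 7.93 in OC.2+ cells, which makes it 2.19-fold (95% interval 1.94 to 2.46) and 2.13-fold (1.89 to 2.39) lower. Irf7 was 1.72-fold (1.45 to 2.03) and 1.58-fold (1.34 to 1.87) lower. Between the fractions Irf3 differed by 0.04 (95% interval -0.13 to 0.21) and Irf7 by 0.12 (-0.12 to 0.36) on the log2 scale. Irf2, which competes with Irf1 for the same DNA letters, was 1.74-fold (1.46 to 2.07) lower in OC.2- cells and 1.31-fold (1.1 to 1.56) lower in OC.2+ cells than in adult hepatocytes. It was 1.33-fold (1.12 to 1.58) higher in OC.2+ cells than in OC.2- cells. Its call against adult hepatocytes in OC.2+ cells was lost without adult replicate 3 (log2 difference -0.3, adjusted p = 0.0573 in limma), without OC.2+ replicate 1 (-0.31, 0.0602) and after repeated quantile normalization (-0.09). Its call between the fractions was lost without OC.2+ replicate 2 (0.33, 0.064) and without OC.2- replicate 3 (0.33, 0.0538). Socs1, which damps the kinases of the pathway, and Ciita, the activator of class II genes, were called in no comparison. Socs1 ranged over 6.55 to 7.01 and Ciita over 5.84 to 6.13 on the 9 arrays, and 5 of the 9 arrays gave Ciita 1 identical deposited value, at 5.95.

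An antiviral gene had the largest fall of any single member in each comparison. Median log2 differences of OC.2- and OC.2+ cells from adult hepatocytes were -0.56 and -0.34 over all measured members. Over the antiviral members they were -0.29 and -0.57. Of the 15 members of this kind, 7 were lower and 2 higher in OC.2- cells than in adult hepatocytes, 9 lower and 3 higher in OC.2+ cells, and 2 higher and 4 lower in OC.2+ cells than in OC.2- cells. As deposited the shares called, 60%, 80% and 40% in that order, stand beside 44.5%, 55.4% and 38.5% of all genes. With centred arrays 9 were lower and 1 higher in OC.2+ cells than in adult hepatocytes, and after cyclic loess 1 was higher and 5 lower than in OC.2- cells. Usp18 removes the ubiquitin-like protein Isg15 from its targets and restrains the type I interferon receptor. Its log2 intensities were 8.26, 8.22 and 8.63 in adult hepatocytes, 4.92, 4.77 and 4.77 in OC.2- cells, and 5.11, 5.06 and 5.28 in OC.2+ cells. Every fetal array lay more than 2-fold below every adult array. All fetal arrays gave Usp18 a level below the median gene, and with no detection call its folds cannot show whether it was expressed there. Usp18 was 11.7-fold (95% interval 9.9 to 13.8) lower in OC.2- cells and 9.3-fold (7.87 to 11) lower in OC.2+ cells, with adjusted p of 5.1e-11 and 3.53e-11 in limma. The fractions differed 1.26-fold (1.06 to 1.49, adjusted p = 0.0311 in limma). That last call did not hold without OC.2+ replicate 1 (log2 difference 0.35, adjusted p = 0.059) or 3 (0.27, 0.133), or without OC.2- replicate 2 (0.31, 0.0922) or 3 (0.31, 0.084). It was also lost after cyclic loess (0.29, 0.0657), with 32 added to each intensity (0.16, 0.192) and over all rows of the table (0.33, 0.0634). Isg15 itself lay below the median gene on all 9 arrays (5.6 to 6.1). It was 1.24-fold (1.08 to 1.43) lower in OC.2+ cells than in adult hepatocytes, and not without OC.2+ replicate 1 (-0.22, 0.0636). In OC.2- cells Isg15 differed by -0.2 from adult hepatocytes (adjusted p = 0.106), and by -0.33 (0.0112) after repeated quantile normalization, -0.3 (0.021) with centred arrays and -0.31 (0.0134) after cyclic loess, where it was called.

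Oas1a makes the short oligoadenylates that switch on an RNA-cutting enzyme. It was at 8.38, 7.51 and 8.41 in adult hepatocytes, 5.56, 5.45 and 5.49 in OC.2- cells, and 5.95, 5.95 and 5.93 in OC.2+ cells. Adult replicate 2 was lower than the other adult arrays and still above every fetal array. Oas1a was 6.07-fold (95% interval 4.61 to 8.01) and 4.47-fold (3.39 to 5.88) lower in the fetal fractions, and between them it differed by 0.44 (0.05 to 0.84, adjusted p = 0.0772 in limma) with no overlap of arrays. That difference was called in a fit of the fetal arrays alone (0.44, 0.000604) and after repeated quantile normalization (0.43, 0.0445). Its relative Oasl was 1.3-fold (1.14 to 1.47) and 1.49-fold (1.31 to 1.69) lower than in adult hepatocytes. Between the fractions Oasl differed by -0.2 (adjusted p = 0.0905), and was called at -0.26 (0.0371) without OC.2+ replicate 2 and at -0.25 (0.0226) after cyclic loess.

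The Mx proteins, which trap viral particles, differed from each other. Mx2 stood at 7.33, 6.89 and 7.18 in adult hepatocytes, 5.43, 5.37 and 5.44 in OC.2- cells, and 5.55, 5.61 and 5.23 in OC.2+ cells. It was 3.29-fold (95% interval 2.74 to 3.95) and 3.19-fold (2.65 to 3.82) lower in the fetal fractions, which did not differ from each other beyond the spread of their arrays. Mx1 ranged over 4.71 to 5.24 with the groups mixed, below the median gene on all 9 arrays. The 3 Ifit genes, whose proteins bind foreign RNA, also split. Ifit2 was at 7.52 to 7.77, 6.96 to 7.1 and 6.53 to 6.72 in adult hepatocytes, OC.2- cells and OC.2+ cells, with every step called (1.48-fold, 1.29 to 1.7, lower in OC.2- cells than in adult hepatocytes, and 1.31-fold, 1.14 to 1.51, lower in OC.2+ cells than in OC.2- cells). Ifit1 (4.6 to 4.96) and Ifit3 (5.37 to 5.83) were low on all arrays and called in no comparison. With no detection call in the deposited values, these low levels do not show whether Mx1, Ifit1 or Ifit3 was expressed in any group.

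Ifih1, a sensor of double-stranded RNA, was 2.02-fold (95% interval 1.7 to 2.41) lower in OC.2- cells and 1.77-fold (1.49 to 2.11) lower in OC.2+ cells than in adult hepatocytes. Bst2 was at 7.5, 7.08 and 7.46 in adult hepatocytes, 5.93, 5.86 and 5.83 in OC.2- cells, and 5.42, 5.45 and 5.43 in OC.2+ cells. Its groups were ordered without overlap, 2.78-fold (2.38 to 3.25) and 3.77-fold (3.23 to 4.41) below adult hepatocytes and 1.36-fold (1.16 to 1.58) apart between the fractions. The stretch before the start of Bst2 held both kinds of letters.

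Ifitm3 showed the largest difference of all members between the fetal fractions. This membrane protein keeps enveloped viruses from fusing with endosomes. Its log2 intensities were 10.05, 10.13 and 10.05 in adult hepatocytes, 9.82, 9.63 and 9.92 in OC.2- cells, and 7.28, 6.77 and 7.1 in OC.2+ cells. The OC.2+ arrays stood far below the other 6. Ifitm3 was 6.68-fold (95% interval 5.58 to 8) lower in OC.2+ cells than in OC.2- cells and 8.14-fold (6.8 to 9.74) lower than in adult hepatocytes, with adjusted p of 1.4e-09 and 1.27e-10 in limma. In OC.2- cells against adult hepatocytes it differed by -0.29 (-0.54 to -0.03, adjusted p = 0.0703), and it was called there with centred arrays (-0.39, 0.0172), with 32 added (-0.28, 0.0424) and in a fit of those groups alone (-0.29, 0.0353). Endothelial and hepatocyte markers were also lower in OC.2+ cells than in OC.2- cells, in 7 of 7 and 10 of 10 genes, and their part in this fall was not tested.

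A few antiviral members were higher in fetal cells. Isg20, an RNA-degrading enzyme, was at 6.95, 7.02 and 6.84 in adult hepatocytes, 7.7, 8.01 and 7.72 in OC.2- cells, and 7.23, 7.23 and 7.23 in OC.2+ cells. The OC.2- arrays were highest, 1.83-fold (95% interval 1.59 to 2.11) above adult hepatocytes, and OC.2+ cells were 1.5-fold (1.3 to 1.72) below OC.2- cells. OC.2+ cells were 1.22-fold (1.06 to 1.41, adjusted p = 0.0178 in limma) above adult hepatocytes, a call lost without adult replicate 3 (0.24, 0.0687) and with centred arrays (0.21, 0.0865). Gbp2, a guanylate-binding protein of cell-autonomous defence, was at 6.14, 6.29 and 6.04 in adult hepatocytes, 6.56, 6.45 and 6.65 in OC.2- cells, and 6.64, 6.49 and 6.63 in OC.2+ cells. Both fetal fractions exceeded the adult arrays, 1.31-fold (1.15 to 1.5) and 1.35-fold (1.18 to 1.54), at a level below the median gene. Rsad2, known as viperin, was 1.25-fold (1.09 to 1.43) higher in OC.2+ cells than in OC.2- cells, which was not called without OC.2+ replicate 3 (0.28, 0.0544) or OC.2- replicate 2 (0.26, 0.0543). Its excess over adult hepatocytes in OC.2+ cells (0.26, adjusted p = 0.0287 in limma) was lost under all 3 other scalings (0.11 to 0.18) and without adult replicate 2 (0.23) or 3 (0.24) or OC.2+ replicate 2 (0.25) or 3 (0.21).

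Genes that cut and load peptides for class I molecules were lower in OC.2- cells than in adult hepatocytes in nearly every case. Of the 9 members, 8 were lower in OC.2- cells and 6 in OC.2+ cells, with medians of -0.75 and -0.37, and 0 were higher in limma, also at an unadjusted p under 0.05. After repeated quantile normalization 4 were lower and 1, Psme1, higher in OC.2+ cells. Between the fractions 6 were higher and 2 lower in OC.2+ cells, with a median of 0.4, and after cyclic loess 5 were higher and 0 lower (6 and 1 at an unadjusted p under 0.05). The shares called as deposited were 88.9%, 66.7% and 88.9% in these 3 comparisons, beside 44.5%, 55.4% and 38.5% of all genes. Psmb9 replaces Psmb6 at an active site of the proteasome once cells see interferon gamma. Its log2 intensities were 10.02, 9.72 and 9.96 in adult hepatocytes, 7.05, 6.72 and 7.05 in OC.2- cells, and 8.19, 7.82 and 7.79 in OC.2+ cells. The groups did not overlap, with OC.2+ cells between the other groups. Psmb9 was 7.79-fold (95% interval 6.42 to 9.44) lower in OC.2- cells, 3.91-fold (3.22 to 4.74) lower in OC.2+ cells, and 1.99-fold (1.64 to 2.42) higher in OC.2+ cells than in OC.2- cells.

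Psmb8, which replaces Psmb5, was at 8.17, 8.04 and 8.4 in adult hepatocytes, 6.09, 6.09 and 6.51 in OC.2- cells, and 6.75, 6.56 and 6.59 in OC.2+ cells. It was 3.93-fold (95% interval 3.26 to 4.74) and 2.98-fold (2.47 to 3.59) lower in the fetal fractions. Between these it was 1.32-fold (1.09 to 1.59) higher in OC.2+ cells, a call lost without OC.2+ replicate 1 (0.34, adjusted p = 0.0909 in limma), without OC.2- replicate 1 (0.33, 0.0916) or 2 (0.33, 0.09), and after cyclic loess (0.33, 0.0537). Psmb10, which replaces Psmb7, stood at 7.13 to 7.5 on all arrays and was not called, with differences from adult hepatocytes of -0.19 and -0.2 (adjusted p = 0.0852 and 0.0565). Without adult replicate 1 it was called in both, at -0.25 (0.0384) and -0.26 (0.0245). It was called as well with centred arrays, at -0.29 (0.00994) and -0.28 (0.0102), and in OC.2+ cells after cyclic loess (-0.25, 0.0254), among the brighter genes alone (-0.2, 0.0492) and with 32 added (-0.17, 0.0413). Thus Psmb9 and Psmb8 were lower in both fetal fractions by different amounts, and Psmb10 was not called.

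The constitutive subunits that they replace moved little as deposited, although another scaling turned the sign for Psmb5 and Psmb7. Psmb5 was at 10.42 to 10.62 in adult hepatocytes, 10.3 to 10.46 in OC.2- cells and 10.45 to 10.66 in OC.2+ cells. Psmb6 was at 8.38 to 8.46, 8.46 to 8.59 and 8.31 to 8.51. Psmb7 was at 9.75 to 9.87, 9.41 to 9.61 and 9.66 to 9.73. Of these only Psmb7 in OC.2- cells was called against adult hepatocytes, 1.25-fold (95% interval 1.11 to 1.41) lower, and its difference there turned to 0.12 (adjusted p = 0.255 in limma) after repeated quantile normalization. The same scaling turned the difference of Psmb5 in OC.2- cells from -0.12 to 0.37 (0.00091), and that of Psmb7 in OC.2+ cells from -0.13 to 0.45 (0.000294). Psmb9 and Psmb8 kept their falls under every setting tried. Over 33 genes of the constitutive proteasome, 22 were lower and 0 higher in OC.2- cells than in adult hepatocytes by limma (25 and 0 at an unadjusted p under 0.05), but 9 were lower and 6 higher after repeated quantile normalization. In OC.2+ cells 9 were lower and 7 higher than in adult hepatocytes, but 1 lower and 20 higher after that scaling. It was 4 lower and 10 higher there after cyclic loess, and 13 lower and 4 higher with centred arrays. The direction of this list against adult hepatocytes thus depends on the scaling. Between the fractions 17 were higher and 0 lower in OC.2+ cells (19 and 0 at an unadjusted p under 0.05), and 19 to 24 were higher and 0 lower under the 3 other scalings. As deposited the shares called in these 3 comparisons, 66.7%, 48.5% and 51.5%, stand beside 44.5%, 55.4% and 38.5% of all genes.

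**Figure D3:**
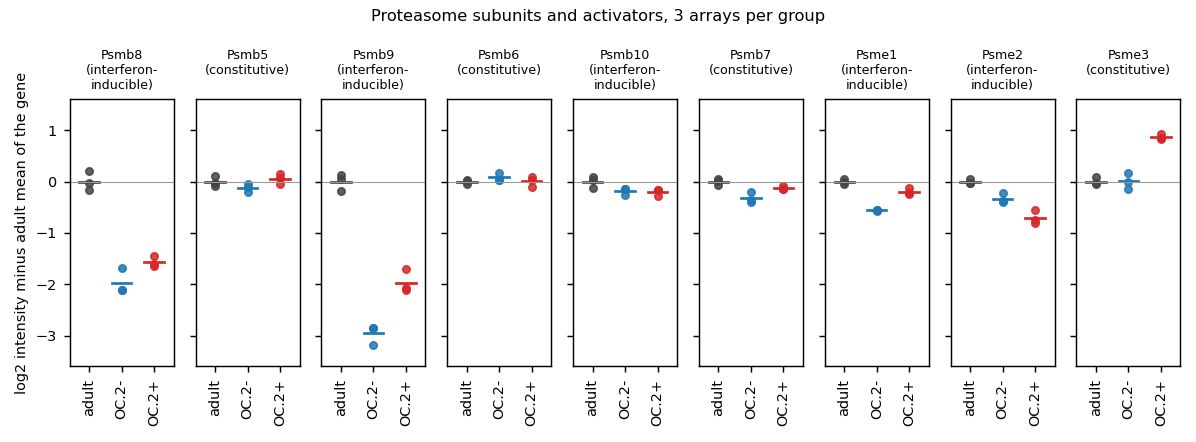
Log2 intensity of proteasome genes on each array, less the mean of the adult arrays for the same gene, with a line at each group mean of 3 arrays and each inducible subunit beside the constitutive one that it replaces. Psmb8 and Psmb9 lie about 2 to 3 below the adult mean in OC.2- cells (-1.97 and -2.96), whereas Psmb5 and Psmb6 lie near it (-0.12 and 0.08, with Psmb5 at 0.37 after repeated quantile normalization). Psme3 is 0.87 higher in OC.2+ cells than in adult hepatocytes.

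Psme1 and Psme2 form the activator ring that opens the proteasome, and they moved in opposite ways between the fractions. Psme1 was at 9.86, 9.8 and 9.77 in adult hepatocytes, 9.23, 9.26 and 9.25 in OC.2- cells, and 9.69, 9.57 and 9.58 in OC.2+ cells. It was lowest in OC.2- cells, 1.48-fold (95% interval 1.32 to 1.65) below adult hepatocytes, and 1.29-fold (1.16 to 1.44) higher in OC.2+ cells than in OC.2- cells. Psme2 was at 11.24, 11.32 and 11.23, then 10.89, 11.04 and 10.87, then 10.71, 10.51 and 10.45 in the same order of groups. It was lowest in OC.2+ cells, 1.63-fold (1.43 to 1.86) below adult hepatocytes and 1.3-fold (1.14 to 1.48) below OC.2- cells. Several of their calls depended on the scaling. After repeated quantile normalization Psme2 was 0.1 higher in OC.2- cells than in adult hepatocytes (adjusted p = 0.37 in limma) in place of -0.33, with differences of -0.03 (0.774) in OC.2+ cells and -0.13 (0.243) between the fractions. After cyclic loess the difference of Psme2 between the fractions was -0.09 (0.444). The difference of Psme1 between OC.2+ cells and adult hepatocytes, -0.2 (adjusted p = 0.0359), became 0.37 (0.000958) after repeated quantile normalization and 0.03 (0.743) after cyclic loess, and its fall in OC.2- cells shrank to -0.1 (0.296) after repeated quantile normalization. The call in OC.2+ cells was also lost without adult replicate 1 (-0.17) or 2 (-0.2) or OC.2+ replicate 2 (-0.17) or 3 (-0.18), and with the mean of its probe sets (-0.03). A second, dim probe set of Psme1 lay at 6.24 to 6.39 in adult hepatocytes, 6.07 to 6.32 in OC.2- cells and 6.42 to 6.48 in OC.2+ cells. Unlike the first, it stood highest in OC.2+ cells. The second probe set of Psme2 fell like its first. It went from 10.58 to 10.66 in adult hepatocytes to 10.01 to 10.28 in OC.2- cells and 9.54 to 9.92 in OC.2+ cells. The activator Psme3 of the nucleus, which interferon does not induce, was 1.82-fold (1.59 to 2.09) higher in OC.2+ cells than in OC.2- cells.

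Tap1 and Tap2 are the chains of the pump that carries peptides into the endoplasmic reticulum, and Tapbp (tapasin) holds empty class I molecules to it. Tap1 was at 7.51, 7.47 and 7.85 in adult hepatocytes, 6.56, 6.62 and 6.85 in OC.2- cells, and 7.21, 7.21 and 7.3 in OC.2+ cells. It was 1.91-fold (95% interval 1.62 to 2.26) lower in OC.2- cells and 1.3-fold (1.1 to 1.53) lower in OC.2+ cells than in adult hepatocytes, the latter not called without adult replicate 3 (-0.25, adjusted p = 0.0514 in limma). Tap2 was at 7.02, 7.08 and 7.29, then 6.58, 6.14 and 6.8, then 7.01, 7.13 and 7.12, and Tapbp at 7.72, 7.59 and 7.73, then 6.7, 6.9 and 7.18, then 7.56, 7.58 and 7.64, in the same order of groups. The OC.2- arrays were the low ones for both, 1.54-fold (1.25 to 1.9) and 1.69-fold (1.43 to 1.98) below adult hepatocytes. In OC.2+ cells Tap2 and Tapbp overlapped the adult arrays, with differences of -0.04 (-0.34 to 0.27) and -0.09 (-0.32 to 0.15). Between the fractions Tap1, Tap2 and Tapbp were 1.48-fold (1.25 to 1.74), 1.5-fold (1.21 to 1.85) and 1.59-fold (1.35 to 1.87) higher in OC.2+ cells. Tapbp and Psmb9 had the largest rises of all members in that comparison.

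B2m went the other way between the fractions. It is the light chain of every class I molecule. Its log2 intensities were 13.19, 13.19 and 13.11 in adult hepatocytes, 11.59, 11.53 and 11.75 in OC.2- cells, and 11.12, 10.95 and 10.95 in OC.2+ cells. The groups were separate, and the OC.2+ arrays the lowest. B2m was 2.91-fold (95% interval 2.57 to 3.31) lower in OC.2- cells and 4.46-fold (3.93 to 5.06) lower in OC.2+ cells than in adult hepatocytes, with adjusted p of 9.29e-09 and 1.15e-10 in limma. Between the fractions it was 1.53-fold (1.35 to 1.74) lower in OC.2+ cells, which cyclic loess reduced to -0.21 on the log2 scale (adjusted p = 0.0779).

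Among the other class I heavy chains and loading factors, 11 of 29 measured genes were lower and 3 higher in OC.2- cells than in adult hepatocytes, and 15 were lower and 5 higher in OC.2+ cells (18 and 2 after cyclic loess). The shares called were 48.3% and 69%, beside 44.5% and 55.4% of all genes. Between the fractions 20.7% were called, beside 38.5% of all genes. RT1-S3, a class I heavy chain, was 10.3-fold (95% interval 8.99 to 11.8) and 10.7-fold (9.35 to 12.3) lower in the fetal fractions, at 9.72 to 9.81 on adult arrays and 6.23 to 6.5 on fetal arrays. Hfe, a class I-like protein that regulates iron uptake and also pairs with B2m, was at 8.62 to 8.74 in adult hepatocytes, 7.26 to 7.27 in OC.2- cells and 6.28 to 6.56 in OC.2+ cells. It fell in the same order of groups as B2m. Cd1d1, which presents lipids, was 1.32-fold (1.17 to 1.5) higher in OC.2- cells and 1.73-fold (1.53 to 1.96) lower in OC.2+ cells than in adult hepatocytes. Erap1, which trims peptides in the endoplasmic reticulum, was 1.85-fold (1.6 to 2.15) and 1.43-fold (1.23 to 1.65) lower in the fetal fractions and 1.3-fold (1.12 to 1.51) higher in OC.2+ cells than in OC.2- cells. The RT1 genes are near-copies of each other and vary between strains, so a probe set named for 1 of them may read others as well.

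The class II members were lower in OC.2- cells than in adult hepatocytes, all 4 of them. In OC.2+ cells 2 of the 4 were lower, Cd74 and RT1-Da, and 1, Cd74, was higher in OC.2+ cells than in OC.2- cells. The shares called were 100% and 50% in OC.2- and OC.2+ cells against adult hepatocytes, and 25% between the fractions. Of all genes 44.5%, 55.4% and 38.5% were called, in that order. Cd74, the invariant chain that guides class II molecules, was at 8.15, 7.93 and 8.59 in adult hepatocytes, 7.23, 7.21 and 7.23 in OC.2- cells, and 7.97, 7.65 and 7.75 in OC.2+ cells. The adult and OC.2+ arrays overlapped, and the OC.2- arrays were lower than all others. Cd74 was 2-fold (95% interval 1.62 to 2.48) lower in OC.2- cells than in adult hepatocytes and 1.48-fold (1.2 to 1.84) higher in OC.2+ cells than in OC.2- cells. Its 1.35-fold (1.09 to 1.67) lower level in OC.2+ cells than in adult hepatocytes was not called without adult replicate 3 (-0.25, adjusted p = 0.079 in limma), without OC.2+ replicate 2 (-0.36, 0.087) or 3 (-0.41, 0.0646), or after repeated quantile normalization (-0.19, 0.241).

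RT1-Da, RT1-Ba and RT1-Bb encode chains of the class II molecules. They were 1.51-fold (95% interval 1.29 to 1.77), 1.35-fold (1.12 to 1.62) and 1.25-fold (1.08 to 1.44) lower in OC.2- cells than in adult hepatocytes. For RT1-Ba this was not called without adult replicate 3 (-0.32, adjusted p = 0.0539 in limma), and for RT1-Bb neither without adult replicate 3 (-0.28, 0.0555) nor without OC.2- replicate 1 (-0.26, 0.0686). In OC.2+ cells RT1-Da was 1.24-fold (1.06 to 1.46) lower than in adult hepatocytes, a call lost without adult replicate 3 (-0.18, 0.0927) or OC.2+ replicate 1 (-0.31, 0.0601) or 2 (-0.31, 0.0611). RT1-Ba and RT1-Bb differed there by -0.19 (-0.45 to 0.08) and -0.1 (-0.3 to 0.11), and RT1-Ba was called at -0.33 (0.0318) after cyclic loess. Between the fractions RT1-Da (0.28), RT1-Ba (0.25) and RT1-Bb (0.22) were not called, and all 3 were called without OC.2- replicate 3, at 0.32 (0.0491), 0.37 (0.0217) and 0.3 (0.0214). RT1-Da was also called there with centred arrays (0.3, 0.0331), after repeated quantile normalization (0.28, 0.0286), among the brighter genes alone (0.28, 0.0397) and in a fit of the fetal arrays alone (0.28, 0.0141), and RT1-Bb after repeated quantile normalization (0.27, 0.0432). Markers of B cells and dendritic cells, which normally carry class II, were read as list means. B cell markers stood at 6.16 to 6.27, 6.28 to 6.43 and 6.44 to 6.53 in adult hepatocytes, OC.2- and OC.2+ cells. Dendritic cell markers stood at 6.27 to 6.31, 6.4 to 6.57 and 6.59 to 6.7 in that order. Against adult hepatocytes 1 of 5 B cell and 2 of 6 dendritic cell markers were higher in OC.2- cells, and 0 lower. In OC.2+ cells 3 of 5 and 3 of 6 were higher, and 0 lower. Of 12 macrophage markers, 8 were higher and 2 lower in OC.2- cells than in adult hepatocytes, and 7 higher and 2 lower in OC.2+ cells. Of all genes 23.7% and 32% were higher in these comparisons, and 20.9% and 23.4% lower. The class II members were lower in these fractions or not called, and the part of macrophages was not tested.

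Genes that work beside class II moved in both directions. Of 20 measured, 5 were higher and 2 lower in OC.2- cells than in adult hepatocytes, and 10 higher and 2 lower in OC.2+ cells. The shares called, 35% and 60%, stand beside 44.5% and 55.4% of all genes. With centred arrays 5 were higher and 5 lower in OC.2- cells. RT1-DMa, which helps to load class II molecules, was 1.54-fold (95% interval 1.3 to 1.81) and 1.73-fold (1.46 to 2.04) higher in the fetal fractions. Ctss, the protease that trims Cd74 in white blood cells, was 2.44-fold (1.88 to 3.17) and 2.07-fold (1.6 to 2.69) higher. Ctsl, a protease of lysosomes in many cells, was at 10.29 to 10.33 in adult hepatocytes, 9.22 to 9.63 in OC.2- cells and 6.17 to 6.65 in OC.2+ cells, and thus 7.87-fold (6.5 to 9.52) lower in OC.2+ cells than in OC.2- cells. Ctss rose while Cd74 and the class II chains fell or were not called.

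Place on the chromosome is a further thing that some members share. In RefSeq on GRCr8, the start sites of 8 members lie on chromosome 20 within 452.5 kb, in the order RT1-Da, RT1-Ba, RT1-Bb, Tap2, Psmb8, Tap1, Psmb9 and Tapbp. Tap2, Psmb8, Tap1 and Psmb9 follow one another between 136.9 and 153.6 kb from the first. Tap1 and Psmb9 are read in opposite directions from starts 457 bases apart, and their promoter windows share 44 bases. Group means of all 8 ran from adult hepatocytes through OC.2+ to OC.2- cells, the order of 18 of the 38 members. Psme1, on chromosome 15, and Cd74, on chromosome 18, ran in that order as well. B2m, on chromosome 3, Psme2, on chromosome 15, and Psmb10, on chromosome 19, ran from adult hepatocytes through OC.2- to OC.2+ cells. RT1-Da, RT1-Ba and RT1-Bb were not called between the fractions. Tap2, Tapbp, RT1-Ba and RT1-Bb were not called between OC.2+ cells and adult hepatocytes, and Psmb10 was called in no comparison. At those steps the order is one of means alone. Of the 8, only Psmb8, Psmb9 and Tap1 were called at every step, and the order was not counted over all genes. The part of place in these orders was not tested.

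**Figure D4:**
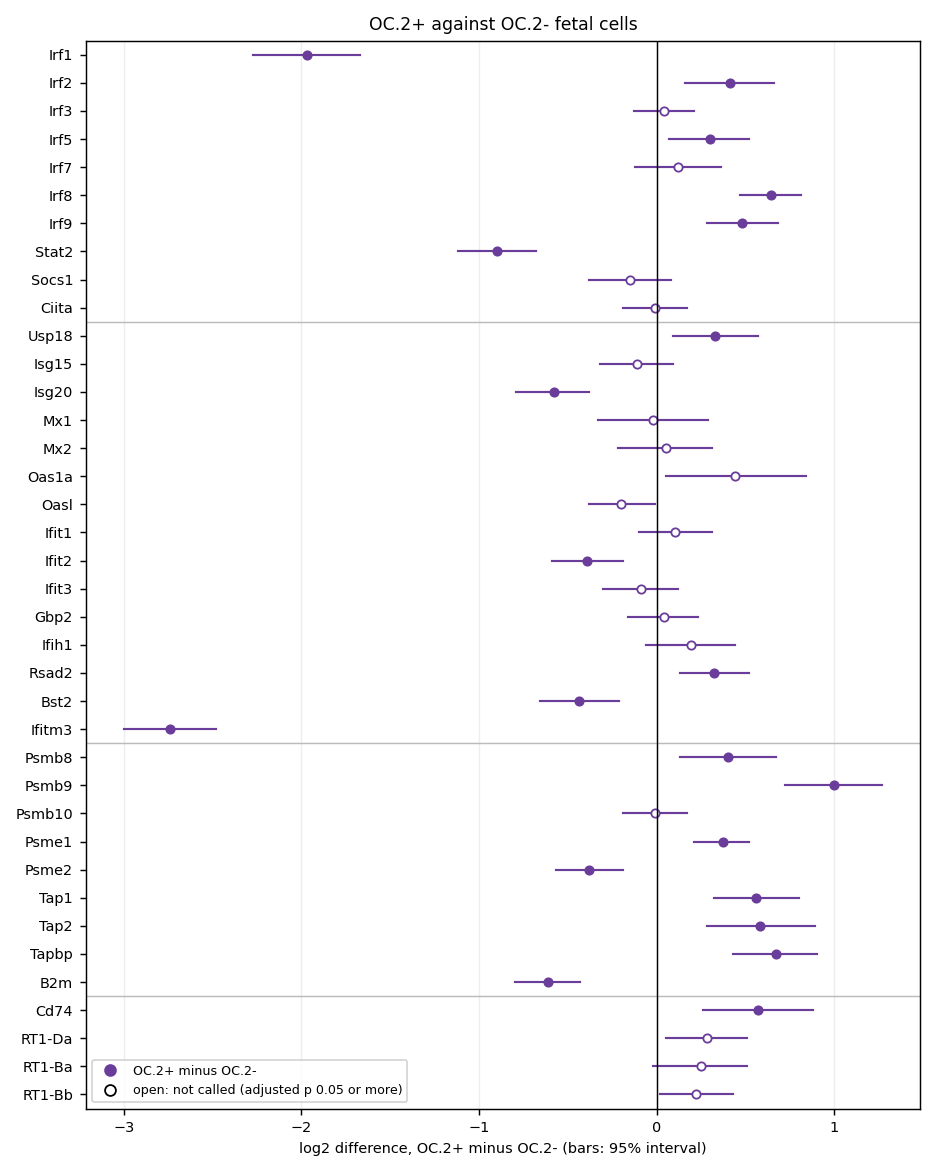
Log2 difference of OC.2+ from OC.2- cells for the 38 measured genes, with 95% intervals from limma and open points where the adjusted p was 0.05 or more. Ifitm3 (-2.74) and Irf1 (-1.97) lie far to the left, and Psmb9 (1.0), Tapbp (0.67) and Irf8 (0.64) farthest to the right.

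Upstream of the members, the kinases Jak1 and Jak2 differed between the fetal fractions in opposite directions. Of 11 genes measured, which include the ligands Ifnb1, Ifng and Ifnk beside receptors, kinases and partners, 3 were lower and 0 higher by limma in OC.2- cells than in adult hepatocytes (3 and 1 at an unadjusted p under 0.05), but 0 lower and 2 higher after repeated quantile normalization. In OC.2+ cells 3 were lower and 4 higher than in adult hepatocytes (4 and 2 with centred arrays), and 2 were higher and 3 lower than in OC.2- cells. The shares called, 27.3%, 63.6% and 45.5% in that order, stand beside 44.5%, 55.4% and 38.5% of all genes. Jak1, the kinase common to both interferon types, was at 9.65 to 9.69 in adult hepatocytes, 9.08 to 9.25 in OC.2- cells and 8.02 to 8.15 in OC.2+ cells, 2.17-fold (95% interval 1.93 to 2.44) lower in OC.2+ cells than in OC.2- cells. Jak2, which serves interferon gamma and blood cell hormones such as erythropoietin, was at 6.56 to 6.77, 6.6 to 6.83 and 7.82 to 8.06, 2.37-fold (2.05 to 2.74) higher in OC.2+ cells than in OC.2- cells. Erythroid markers rose with Jak2 between the fractions, for 8 of 8 genes, and granulocyte markers for 9 of 10 (20.3% of all genes). In OC.2- cells 8 of 8 erythroid and 4 of 10 granulocyte markers were higher than in adult hepatocytes (23.7% of all genes). The Jak2 arrays of these 2 groups overlapped. The part of these markers in the result was not tested. Stat3, which carries interleukin-6 signals, was 1.61-fold (1.4 to 1.85) lower in OC.2+ cells than in OC.2- cells, and its difference in OC.2- cells from adult hepatocytes turned from -0.11 to 0.31 (adjusted p = 0.00883 in limma) after repeated quantile normalization. Ifnar1, a chain of the type I receptor, was 1.27-fold (1.11 to 1.46) lower in OC.2- cells and not called in OC.2+ cells relative to adult hepatocytes. Ifngr1, a chain of the interferon gamma receptor, was 1.38-fold (1.18 to 1.62) higher in OC.2+ cells than in adult hepatocytes.

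Sensors of nucleic acids and their adaptors were called about as often as all genes in OC.2+ cells. Of 16 measured, 6 were lower and 3 higher than in adult hepatocytes in OC.2- cells, with the same counts in OC.2+ cells, and 2 were higher and 4 lower in OC.2+ cells than in OC.2- cells. The shares called were 56.2% in each fetal fraction against adult hepatocytes, beside 44.5% and 55.4% of all genes, and 37.5% between the fractions, beside 38.5%. After repeated quantile normalization 5 were higher and 4 lower between the fractions, and with centred arrays 7 were lower and 2 higher in OC.2+ cells than in adult hepatocytes. Tlr3, a sensor of double-stranded RNA, was at 8.31 to 8.56 in adult hepatocytes, 7.7 to 8.2 in OC.2- cells and 5.92 to 6.14 in OC.2+ cells, 3.76-fold (95% interval 3.13 to 4.51) lower in OC.2+ cells than in OC.2- cells. Tlr7, a sensor of single-stranded RNA in white blood cells, was at 5.65 to 5.96, 6.08 to 6.47 and 7.05 to 7.37, 1.8-fold (1.48 to 2.18) higher in OC.2+ cells than in OC.2- cells. Mavs, the adaptor through which Ifih1 signals, was 1.76-fold (1.54 to 2.01) and 1.65-fold (1.44 to 1.88) lower in the fetal fractions than in adult hepatocytes, as Ifih1 was.

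Interferon-induced genes outside the members were also lower more often than higher. Of 49 measured, 27 were lower and 14 higher in OC.2- cells than in adult hepatocytes (28 and 8 with centred arrays), with a median of -0.43, and 27 lower and 13 higher in OC.2+ cells, with a median of -0.48. The shares called were 83.7% and 81.6%, beside 44.5% and 55.4% of all genes. Phf11 was at 7.48 to 7.69 on adult arrays and 4.4 to 4.85 on fetal arrays, 7.67-fold (95% interval 6.33 to 9.29) and 7.91-fold (6.53 to 9.58) lower. Oas1i, a relative of Oas1a, was 4.9-fold (4.37 to 5.49) and 4.87-fold (4.34 to 5.46) lower. Ifi27 was 4.15-fold (3.71 to 4.66) and 6.4-fold (5.7 to 7.17) lower. The list also held large rises. Ifitm2, a relative of Ifitm3, was at 5.18 to 5.71 in adult hepatocytes, 8.27 to 8.56 in OC.2- cells and 7.67 to 7.89 in OC.2+ cells, 8.03-fold (6.64 to 9.7) and 5.11-fold (4.23 to 6.18) higher. Ifitm2 and Ifitm3 thus differed from adult hepatocytes in opposite directions in OC.2+ cells. Such relatives are alike in sequence, and how far each probe set reads the other was not tested.

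Cxcl10, a chemokine that interferon gamma induces, was highest in OC.2- cells, as Irf1 was. It was at 7.35, 8.28 and 8.4 in adult hepatocytes, 10.46, 10.04 and 11.14 in OC.2- cells, and 7.69, 7.58 and 7.96 in OC.2+ cells. The OC.2- arrays alone were high, 5.8-fold (95% interval 3.8 to 8.85) above adult hepatocytes and 6.99-fold (4.58 to 10.7) above OC.2+ cells, while the adult and OC.2+ arrays overlapped. Socs3, a damper of cytokine signals that acts early, was also highest in OC.2- cells but lowest in adult hepatocytes, at 6.71 to 7.16, 8.97 to 9.22 and 7.26 to 7.51, 4.25-fold (3.54 to 5.09) higher in OC.2- cells than in adult hepatocytes and 3.23-fold (2.69 to 3.87) lower in OC.2+ cells than in OC.2- cells. Endothelial markers were likewise higher in OC.2- cells than in both other groups. The mean of the 12 macrophage markers was also highest there. Of these, 4 were lower and 0 higher in OC.2+ cells than in OC.2- cells (18.2% and 20.3% of all genes). In OC.2- cells 8 were higher and 2 lower than in adult hepatocytes (23.7% and 20.9%). The part of endothelial and macrophage markers in these results was not tested. Socs2, a damper that growth hormone induces, was 5.62-fold (3.88 to 8.15) lower in OC.2- cells and 2.74-fold (1.89 to 3.97) lower in OC.2+ cells, with adult arrays spread over 8.47, 9.16 and 9.89. Of the 13 dampers beside Socs1, 1 was higher and 4 lower in OC.2- cells than in adult hepatocytes, and 6 were higher and 2 lower in OC.2+ cells. After repeated quantile normalization these counts were 4 and 3, and 9 and 1. As deposited the shares called were 38.5% and 61.5%, beside 44.5% and 55.4% of all genes. Sp100, a protein of nuclear bodies, was at 5.92 to 6.12, 7.41 to 7.63 and 8.46 to 8.65 and rose in steps like Irf8. Lgals3bp, a secreted glycoprotein, was 5.25-fold (4.36 to 6.31) higher in OC.2+ cells than in OC.2- cells, and Lgals9, a lectin, 3.49-fold (2.97 to 4.11) lower.

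**Figure D5:**
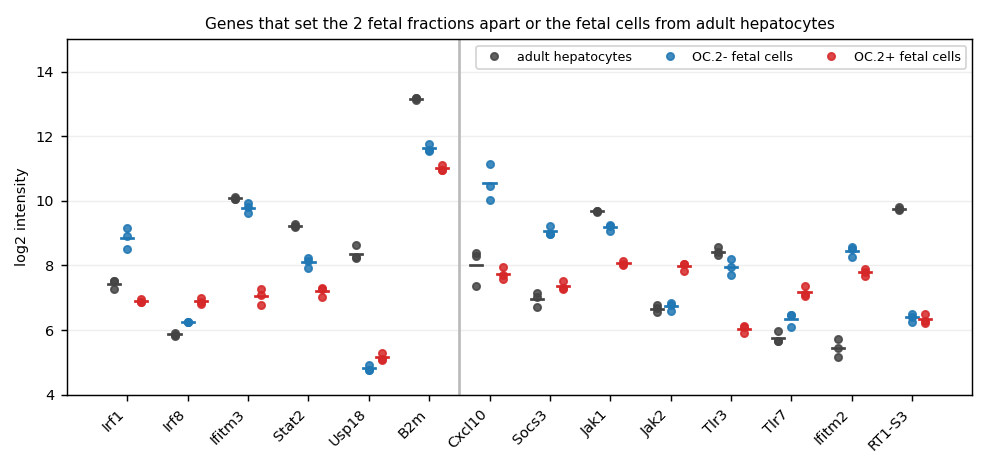
Log2 intensity on each of the 9 arrays for 6 members (left of the line) and 8 genes of the other lists, with a line at each group mean of 3 arrays. Irf1, Cxcl10 and Socs3 are highest on the OC.2- arrays, Irf8, Jak2 and Tlr7 on the OC.2+ arrays, and Usp18, B2m and RT1-S3 on the adult arrays.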

How the data were processed

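The 9 preparations of rat liver cells fall into 3 groups of 3 by sample title and cell type label. Values were deposited as linear intensity. Partek 6.6 and RMA are named, with no role, per the submitters' processing notes. The genome build was not given in the sources used here. Per the labels' protocols, 150 ng of total RNA entered each labelling. RMA as usually run makes arrays alike in distribution, which can hide a shift shared by most genes, and it shrinks differences of dim genes. The deposited arrays were not fully alike. Over all rows their median log2 intensity ran from 6.313 (adult replicate 1) to 6.487 (OC.2- replicate 3). Repeated quantile normalization here means quantile normalization of the deposited gene values. Of 28826 rows, 15209 had 1 gene symbol in the probe annotation, 306 several and 13311 none. Log2 was taken, and the row with the highest mean stood for a gene (494 genes had several), with no filter and no detection call. In 41.9% of rows at least 2 arrays share 1 identical deposited value.

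Limma 3.58.1 in R 4.3.3 (lmFit and eBayes) fitted a mean for each group over all 9 arrays, leaving 6 residual degrees of freedom. The p-values (2-sided) were adjusted by Benjamini and Hochberg's method over 14497 genes. Intervals are 95% intervals of a difference. Over all genes, log2 differences had a median standard error of 0.0946, which the number of arrays limits. The script was tested on simulated data. Same-numbered replicates did not deviate together (correlations -0.226 to 0.106), so numbers were not taken as pairs.

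The members, the other gene lists and the marker lists were chosen with earlier results of these data known, so counts over them are descriptions. All measured members are described, with each array's value where a result turns on it. From the other lists the naming rule took up to 2 called genes each way with the largest differences, with Psmb5, Psmb6 and Psmb7 added. A further gene that the rule added is not reported here. Examples among these were picked with their values known. The preparations are called biological replicates in the labels. Protein sequences were not used here. Alternatives were other scalings, a filter on dim genes, 32 added to each intensity, the mean of probe sets, all rows, another variance model, fits of only the groups compared, a replicate block, a threshold of 0.01, and each array left out.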

Additional observations from a re-analysis of the deposited data

How the results depend on the processing

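Of the members called, 14 of 21 kept direction and call under every setting tried between the fractions, 24 of 28 for OC.2- cells and adult hepatocytes, and 18 of 27 for OC.2+ cells and adult hepatocytes. At a threshold of 0.01, 8 members were higher in the OC.2+ fraction than the OC.2- fraction and 3 were higher in OC.2+ cells than in adult hepatocytes, a count that was also 3 with arrays centred on their medians. With each array left out in turn, the counts higher and lower were 9 to 13 and 8 to 9 between the fractions, 4 to 5 and 22 to 25 for OC.2- cells and adult hepatocytes, and 3 to 5 and 18 to 22 for OC.2+ cells and adult hepatocytes, the lowest count of 3 without adult replicate 3. After repeated quantile normalization, differences from adult hepatocytes turned to 0.1 for Psme2, 0.31 for Stat3, 0.37 for Psmb5 and 0.12 for Psmb7 in OC.2- cells, and to 0.37 for Psme1, 0.06 for Ifi30 and 0.45 for Psmb7 in OC.2+ cells. Cyclic loess turned Psme1 to 0.03 in OC.2+ cells. The cause was not tested. With the replicate number as a block, 14 members were higher and 8 lower between the fractions, 4 and 24 for OC.2- cells and adult hepatocytes, and 5 and 21 for OC.2+ cells and adult hepatocytes. Under this block RT1-Da was called between the fractions (0.28, adjusted p = 0.0367 in limma), and Psme1 was not called for OC.2+ cells and adult hepatocytes (-0.2, 0.0587). Signal over background cannot be judged without a detection call, which limits what is said of the 8 members below the median gene on all 9 arrays, and of folds such as those of Usp18, Oas1a, Mx2 and Bst2, whose fetal levels were that low.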
